A study of Mus musculus with 6 samples.

Results

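The genes described here encode the RNA-binding proteins that choose exons in pre-mRNA: the SR proteins and their relatives (Srsf, Tra2, Srrm), the hnRNP proteins with the polypyrimidine tract proteins (Hnrnp, Ptbp), the neuronal families Elavl, Celf, Rbfox and Nova, and the cold-shock proteins (Ybx). They were taken from the deposited gene table by symbol, without use of any measured value, and they number 56 of 23079 genes. All 56 passed the filter on low counts. The labels describe midbrain dopaminergic neurons from C57BL/6 animals with the transgene Dat bacTRAP, under which a ribosomal protein bears a tag wherever the dopamine transporter promoter is active. An AAV1 vector, derived from adeno-associated virus, carried a short hairpin RNA against Satb1 with EGFP in 3 knockdown libraries, and a scrambled hairpin with EGFP in 3 control libraries, as the treatment text has it, while the sample titles say siRNA. The transgene is common to both groups. The labels give 3 mice aged 4 months for all 6 libraries and do not say which mouse gave which library, so the p-values rest on the spread among libraries that may share an animal. Substantia nigra and ventral tegmental area were cut from slices of 1 mm. The labels name total RNA and no ribosome capture step, and the promoter that drives the hairpin is not given in the sources used here.

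An exon is kept or skipped according to the proteins bound in and around it. SR proteins bind enhancers within exons and recruit the spliceosome, while many hnRNP proteins bind silencers and oppose them. Neurons add families of their own, and the balance between members sets neuron-specific exons in synaptic, channel and cytoskeletal transcripts. Gene counts, as used here, give the amount of RNA of each regulator and say nothing of the splicing of its targets. Many regulators also splice their own transcripts into forms that are degraded. GENCODE annotates at least 1 transcript subject to nonsense-mediated decay for 30 of the 56 genes and at least 1 with a retained intron for 40. Productive and unproductive forms enter the same gene count.

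Satb1 itself was at 82.9, 166 and 61.2 CPM (counts scaled to library size) in knockdown libraries 1 to 3, and at 351, 349.6 and 319.8 CPM in control libraries 1 to 3. Library sizes were scaled by the trimmed mean of M-values (TMM). The knockdown was thus weakest in knockdown library 2 (log2 fold change over all libraries -1.72 ± 0.26, SE; edgeR quasi-likelihood test, adjusted p = 0.00106). Gene counts summed to between 147486754 and 164554674 in the knockdown and between 160792736 and 170351145 in the controls, so that 1 count was worth at most 0.00672 CPM. The labelled cell type was checked with its markers: Slc6a3, the dopamine transporter, was at 2730 ± 586 CPM in the knockdown and 4490 ± 193 CPM in controls, and Th, which makes the dopamine precursor, at 2410 ± 286 and 3510 ± 298 CPM (SD, n = 3 each). Of 16 dopamine neuron markers, 9 were called lower and none higher (8 lower and 1 higher when libraries were scaled by total counts). Of 13 general neuronal genes 8 were called lower and 1 higher (4 lower and 2 higher under total counts). Those are 56.2% and 61.5% lower, against 12.6% of all tested genes and 20.5% of those with a mean of 10 to 1000 CPM. Several of these genes, such as Th, Slc6a3 and Snap25, lay above that range. Of 13 oligodendrocyte markers, 10 were called higher, or 76.9%, against 8.48% of all tested genes and 9.76% of those at 10 to 1000 CPM. Under total counts 11 were higher. Some of the 13, such as Sox10 and Olig2, had means below 10 CPM. The summed level of the 13 was 666 to 755 CPM in the knockdown against 424 to 491 CPM in controls. Astrocyte markers had a median log2 fold change of 0.57, with Aqp4 and S100b called higher and Slc1a2 lower among 10. Their sum of 251 to 254 CPM in the knockdown and 268 to 314 CPM in controls followed Slc1a2, a glutamate transporter, at 177 and 245 CPM, and the other 9 had positive log2 fold changes. Microglia markers had a median of 1.08, with Csf1r, Cd68 and Trem2 called higher and P2ry12 lower among 13, and summed to 27 to 35.2 CPM against 26.3 to 27.6 CPM. Vessel markers had a median of 0.39, with Cdh5 called higher among 10, and summed to 4.94 to 9.4 CPM against 5.87 to 7.13 CPM. Of the astrocyte, microglia and vessel markers 30%, 30.8% and 10% were called, against 21.1% of all tested genes. Under total counts 5, 5 and 1 of them were higher. No marker of these 4 cell types was at 0 in all libraries. Fewer cells of a type and less RNA per cell cannot be told apart in such bulk libraries.

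Of the splicing regulators called after Satb1 knockdown, all but Hnrnpf were lower. At an adjusted p under 0.05 (edgeR quasi-likelihood test, Benjamini-Hochberg adjustment over 16766 genes), 21 of the 56 were lower, 1 was higher and 34 did not pass. That is 39.3% of the family members called, where 21.1% of all tested genes were. In the lower direction alone it is 37.5% against 12.6%, and the single higher gene stands against 8.48%. The members are abundant, with a median of 90.2 CPM against 14.9 CPM for all tested genes, and abundant genes were called more often. Among the 9383 genes between 10 and 1000 CPM, a range chosen after the values were seen, 22 of the 55 members in it were called, 21 of them lower (38.2%), while 30.2% of all its genes were called, 20.5% lower and 9.76% higher. The 3 knockdown libraries lay entirely below the 3 controls for 26 members and entirely above for 3, or 51.8% without overlap, against 38.7% of all tested genes and 48.9% of genes in the range of level. The median log2 fold change was -0.22 for the members and 0.01 for all tested genes. Between 10 and 1000 CPM it was -0.21 for the 55 members and -0.07 for all genes of that range.

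The direction depended in part on how libraries were scaled. When total counts replaced TMM, the median of all genes moved to 0.18 and that of the members to -0.05. Such a change of scaling moves all genes alike, and the median of the members lay 0.23 under that of all genes on the log2 scale (difference -0.23). Under total counts 13 members were lower and 5 higher. Of the 22 called members, 13 kept their call under each of the 14 alternatives run: Celf1, Celf2, Celf3, Celf5, Celf6, Elavl3, Rbfox2, Srsf5, Srsf12, Tra2b, Hnrpdl, Ybx1 and Hnrnpf. Without knockdown library 1, 13 members were lower, against 15 without control library 2 or 3 and 18 without knockdown library 2. Oligodendrocyte markers had a median log2 ratio to the control mean of 0.70, 0.53 and 0.60 in knockdown libraries 1 to 3, where the members had -0.32, -0.25 and -0.09 and the 21 lower members -0.66, -0.47 and -0.39. The part of other cells in these values was not tested.

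**Figure D1:**
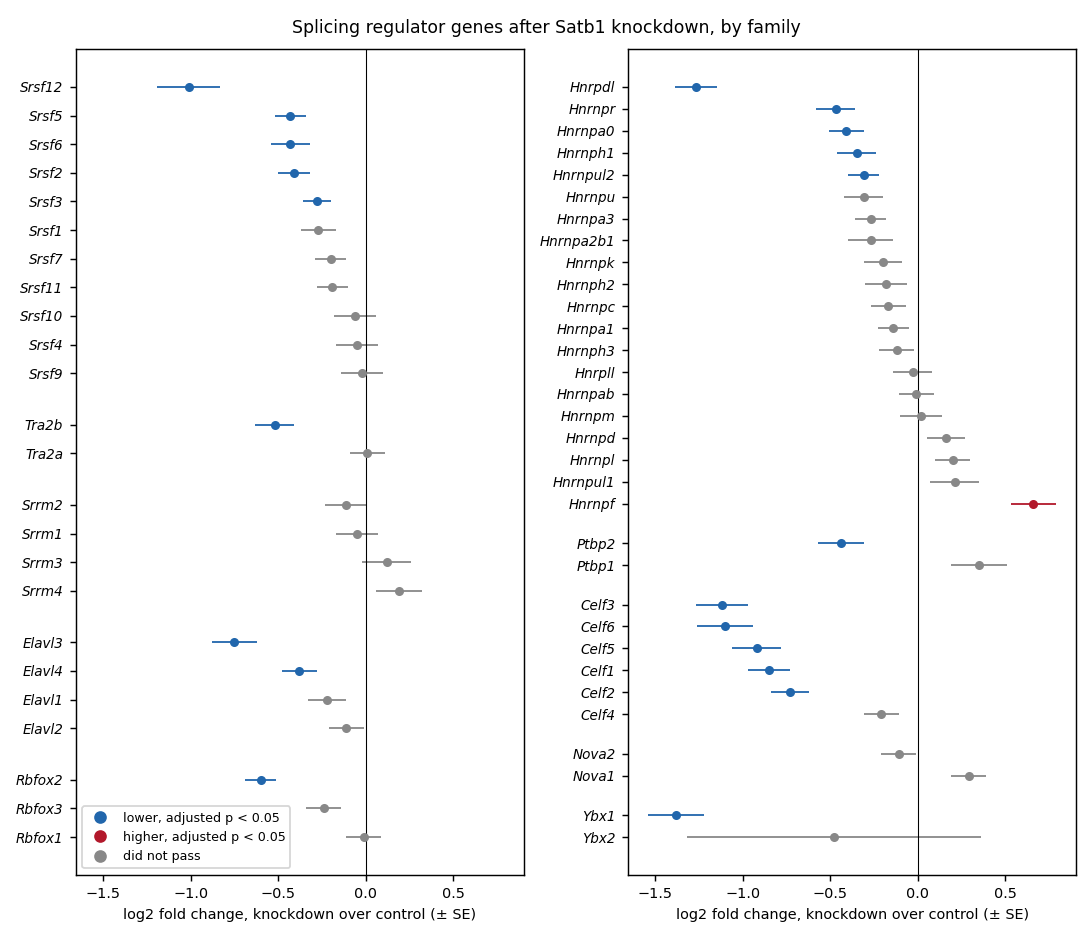
Log2 fold change of the 56 splicing regulator genes, knockdown over control, by family, with standard errors as bars (edgeR, TMM scaling). Blue points are the 21 genes called lower, the red point is Hnrnpf, called higher, and grey points did not pass. The 5 blue CELF genes lie between -1.12 and -0.73, away from Celf4 at -0.21.

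Among the SR proteins, 5 of 11 Srsf genes were lower, none was higher and 6 did not pass, or 45.5% lower against 12.6% of all tested genes and 20.5% of those at 10 to 1000 CPM. Under total counts 2 of the 11 were lower. The largest change was in Srsf12, an SR-related protein whose human form counteracts other SR proteins. Its level was 22.4, 33.9 and 18.1 CPM in knockdown libraries 1 to 3, and 53.4, 48.5 and 48.3 CPM in control libraries 1 to 3. The groups did not overlap, and knockdown library 2 lay closest to the controls. The log2 fold change was -1.01 ± 0.18 (SE; adjusted p = 0.00261, edgeR), or 2.02-fold lower. Srsf5 had the highest level per length of the family, with a mean of 131 CPM per kilobase of exon in the knockdown and 176 in controls. It was at 207, 219.6 and 222 CPM in the knockdown and 308, 289 and 279.6 CPM in controls, lower by 1.35-fold (log2 fold change -0.43 ± 0.09, adjusted p = 0.0041). Srsf2, a component of nuclear speckles, was at 165, 175 and 173 CPM in the knockdown and 236, 221 and 225 CPM in controls (-0.41 ± 0.09, adjusted p = 0.00515). Both groups of this gene were tight and well apart. Srsf6, a classical enhancer-binding SR protein, was at 58.6, 67.1 and 70.2 CPM in the knockdown and 88.2, 80.9 and 94.8 CPM in controls (-0.43, adjusted p = 0.0128). Srsf3, the smallest SR protein, was at 215, 222 and 219 CPM against 265, 272 and 260.0 CPM, the mildest of the 5 decreases (-0.28, adjusted p = 0.028).

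The calls for Srsf2, Srsf3 and Srsf6 were lost with total-count scaling. The call for Srsf3 was also lost with a filter at a mean of 1 CPM and without control library 1, 2 or 3 or knockdown library 1, and that for Srsf6 without control library 3 or knockdown library 1. Srsf1 (-0.27), Srsf7 (-0.20) and Srsf11 (-0.19) had knockdown libraries below all controls and did not pass. Srsf4, Srsf9 and Srsf10 had values between -0.06 and -0.02. Exons of Srsf2 overlap Mettl23 and Mfsd11 on the opposite strand, and those of Srsf4 overlap Gm12992 there. Of the 50-base words of Srsf4, 65.4% also occur outside the gene, in transcripts of Gm12992. For Srsf2, Srsf3 and Srsf5, 31.8%, 31.5% and 23.6% occur in transcripts of other genes. The counts of these genes are thus uncertain.

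The products of the pair of Tra2 genes are SR-like and activate exons through GA-rich enhancers. Of the pair, 1 was lower, where 12.6% of all tested genes and 20.5% of those at 10 to 1000 CPM were. Tra2b was at 56.2, 55.2 and 66 CPM in the knockdown and at 81.4, 81.3 and 90.9 CPM in controls, with log2 fold change -0.52 ± 0.11 (SE; adjusted p = 0.00484, edgeR). No knockdown library reached a control. Tra2a was at 61.3, 53.8 and 60.4 CPM in the knockdown and at 56.6, 62.2 and 54.8 CPM in controls, with the groups interleaved (0.01 ± 0.10, adjusted p = 0.945). Tra2b lies at chr16:22244552-22266005 on the minus strand of GRCm38, and 17.6% of its 50-base words occur in 4 other genes.

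None of the 4 Srrm genes passed. Srrm2, a speckle scaffold and the most abundant of them per length, was at 511, 536 and 679 CPM in the knockdown and 537, 618 and 705 CPM in controls. Srrm4, the neuronal activator of microexons, was at 40.3, 44.1 and 46.9 CPM against 30.8, 42.3 and 42.2 CPM (log2 fold change 0.19 ± 0.13, adjusted p = 0.359), with overlapping groups. Srrm1, a coactivator that bridges SR proteins, had a value of -0.05, and Srrm3, a relative of Srrm4, one of 0.12.

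Of 20 hnRNP genes, 5 were lower, 1 was higher and 14 did not pass, a share of 30.0% called against 21.1% for all tested genes and 30.2% for genes of 10 to 1000 CPM. Hnrpdl, now named Hnrnpdl, a relative of hnRNP D that binds AU-rich RNA, was the member with the smallest p. It was at 55.2, 77.5 and 66.3 CPM in knockdown libraries 1 to 3, and at 161, 155 and 164 CPM in control libraries 1 to 3. Every knockdown library was below the lowest control by a wide margin. The log2 fold change was -1.27 ± 0.12 (SE; adjusted p = 0.000145, edgeR), or 2.41-fold lower. The gene lies at chr5:100033577-100039936 on the minus strand of GRCm38, and no other annotated gene overlaps its coding transcripts.

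The other 4 decreases among hnRNP genes were smaller. Hnrnpr, which binds actin mRNA and travels into axons, was at 56.4, 63.7 and 71.7 CPM in the knockdown and 85.4, 87.6 and 93.3 CPM in controls (log2 fold change -0.47 ± 0.11, adjusted p = 0.00872). Hnrnpa0, an intronless relative of hnRNP A1, was at 235, 252 and 299.7 CPM in the knockdown and 331, 355 and 357 CPM in controls (-0.41, adjusted p = 0.0134). In both, knockdown library 3 lay nearest to the controls. Hnrnph1, which binds runs of G, was at 121, 126 and 154 CPM against 158, 174 and 179 CPM (-0.35, adjusted p = 0.0364). Hnrnpul2, a relative of the scaffold protein hnRNP U, was at 137, 138 and 143 CPM against 158, 177 and 183 CPM (-0.31, adjusted p = 0.0312). The call for Hnrnpr was lost without knockdown library 1. The call for Hnrnpa0 was lost under total counts, and on removal of knockdown library 1 or control library 2, and those for Hnrnph1 and Hnrnpul2 under total counts and without any 1 of knockdown libraries 1 and 2 and control libraries 2 and 3.

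Hnrnpf, which binds the same G runs as Hnrnph1, was the only one of the 56 genes called higher in the edgeR test with TMM scaling. It was at 56.9, 50.8 and 72.6 CPM in the knockdown and at 38.6, 36.2 and 39.1 CPM in controls, with log2 fold change 0.66 ± 0.13 (SE; adjusted p = 0.00383, edgeR), or 1.58-fold higher. The controls were tight and the knockdown libraries spread above them. Of its 50-base words, 61.9% also occur in transcripts of 11 other genes, so that its count is uncertain. Nova1, Ptbp1, Hnrnpd and Hnrnpl were also higher with total-count scaling.

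The 3 most abundant hnRNP genes per length did not all pass. Hnrnpa2b1, a carrier of neuronal mRNA, averaged 198 CPM per kilobase in the knockdown and 239.8 in controls, but its libraries overlapped: 439.8, 421 and 588 CPM against 514, 573 and 663 CPM (log2 fold change -0.27, adjusted p = 0.161). Hnrnpa1, the classical antagonist of SR proteins, had a value of -0.14 (adjusted p = 0.325), and 46.7% of its words occur in other genes. Hnrnpa0 is the third. The remaining uncalled members ran from Hnrnpu at -0.31 to Hnrnpul1 at 0.21, and those of Hnrnpab, Hnrnpm and Hnrpll were within 0.03 of zero. Under total-count scaling 2 hnRNP genes were lower and 3 higher. Without single libraries, between 1 and 8 were lower.

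Of the pair of polypyrimidine tract genes, 1 was lower, where 12.6% of all tested genes and 20.5% of those at 10 to 1000 CPM were. Ptbp1 silences neuronal exons in cells that are not neurons, and Ptbp2 is its neuronal counterpart. Ptbp2 was at 54.2, 64.5 and 73 CPM in the knockdown and 73.1, 88.6 and 98.3 CPM in controls, with the highest knockdown library just under the lowest control (log2 fold change -0.44 ± 0.13, adjusted p = 0.0334, edgeR). Total counts removed its call, as did the absence of any 1 of knockdown libraries 1 and 2 and control libraries 2 and 3. Ptbp1 was at 19, 21.3 and 26.9 CPM in the knockdown and 14.7, 18.4 and 19.7 CPM in controls. Its groups overlapped, and its log2 fold change of 0.35 ± 0.16 did not pass (adjusted p = 0.134). Exons of Ptbp1 overlap Plppr3 and other transcripts on the opposite strand.

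Of the 6 CELF genes, 5 were lower, or 83.3%, with TMM scaling, relative log expression scaling and total counts alike. With TMM scaling 12.6% of all tested genes were lower, and 20.5% of those at 10 to 1000 CPM. Over all genes 2115 were lower with TMM scaling and 972 under total counts. CELF proteins bind GU-rich RNA and act on splicing, translation and decay. Celf3, enriched in brain, was at 50, 60.6 and 37.4 CPM in knockdown libraries 1 to 3, and at 101, 109 and 112 CPM in control libraries 1 to 3 (log2 fold change -1.12 ± 0.15, SE; adjusted p = 0.000504, edgeR). Celf6, also enriched in brain, was at 35.4, 45.2 and 26 CPM in the knockdown and 82.9, 70.1 and 76.1 CPM in controls (-1.10 ± 0.16, adjusted p = 0.000873). Both were lower by more than 2.1-fold, and in both knockdown library 3 was lowest and library 2 highest. Celf5, another brain member, was at 31, 37.4 and 26.1 CPM against 53.9, 59.4 and 65.8 CPM (-0.92, adjusted p = 0.000841). The broadly expressed Celf1 was at 50.3, 64.3 and 47.5 CPM against 91.7, 96 and 105 CPM (-0.85, adjusted p = 0.000714). Celf2, expressed in brain, heart and muscle, was at 135, 171 and 153 CPM against 238, 243 and 283 CPM (-0.73, adjusted p = 0.000873). None of these 5 genes had a knockdown library within the range of the controls.

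Celf4, a regulator of synaptic mRNA in excitatory neurons, did not pass. It was at 790.0, 843 and 946 CPM in the knockdown and 902, 992 and 1089 CPM in controls. The highest knockdown library lay above the lowest control, and the log2 fold change was -0.21 ± 0.10 (adjusted p = 0.144). Per length Celf4 averaged 206 CPM per kilobase in the knockdown and 238 in controls, close to the levels of Hnrnpa2b1 given above, where Celf1 averaged 6.67 and 12, Celf2 15.2 and 25.3, Celf3 14.1 and 30.7, Celf5 5.18 and 9.82 and Celf6 11.1 and 23.8. Exons of Celf2, Celf3 and Celf5 overlap a gene on the opposite strand, Riiad1 in the case of Celf3. Since Celf1, Celf2, Celf3 and Celf5 were lower while Hnrnpf was higher, the bases upstream of these genes are shown. Those before Celf6, also lower, lie in annotated exons and are not shown. In the run shown for Hnrnpf, 16 bases overlap an annotated exon. The runs are 107 to 250 bases long, so their motif counts are not on an equal footing. Each run ends where the annotated gene begins, reads 5′ to 3′ and comes from RefSeq (GRCm38.p6), and capitals mark GC boxes (GGGCGG) and CCAAT boxes (CCAAT) on either strand.
Celf3, chr3:94478045-94478284, plus strand: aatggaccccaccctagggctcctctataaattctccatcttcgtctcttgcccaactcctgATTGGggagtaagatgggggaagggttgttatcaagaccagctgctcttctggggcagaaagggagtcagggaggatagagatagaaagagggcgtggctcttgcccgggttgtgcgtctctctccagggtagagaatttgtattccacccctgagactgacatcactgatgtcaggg
Celf5, chr10:81482731-81482949, minus strand: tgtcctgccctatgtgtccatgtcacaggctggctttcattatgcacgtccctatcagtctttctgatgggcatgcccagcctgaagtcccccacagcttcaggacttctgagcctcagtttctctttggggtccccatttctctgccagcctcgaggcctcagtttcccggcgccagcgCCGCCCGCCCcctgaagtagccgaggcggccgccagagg
Celf1, chr2:90940147-90940258, plus strand: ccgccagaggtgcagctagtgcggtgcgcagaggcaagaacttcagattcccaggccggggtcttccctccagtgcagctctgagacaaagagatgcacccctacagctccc
Celf2, chr2:7396342-7396448, minus strand: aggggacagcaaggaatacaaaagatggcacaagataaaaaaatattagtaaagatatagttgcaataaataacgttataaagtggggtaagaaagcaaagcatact
Hnrnpf, chr6:117900090-117900339, plus strand: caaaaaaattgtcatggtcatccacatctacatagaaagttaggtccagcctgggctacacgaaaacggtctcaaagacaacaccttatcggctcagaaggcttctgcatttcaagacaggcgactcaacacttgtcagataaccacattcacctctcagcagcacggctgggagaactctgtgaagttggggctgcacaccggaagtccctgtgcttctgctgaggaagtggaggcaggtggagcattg

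No motif searched was shared by all 4 CELF runs. The run of Celf5 holds 2 GC boxes, which overlap, and that of Celf3 holds 1 CCAAT box. The others hold neither of these boxes. TATAAA, which is not marked in capitals, occurs in the runs of Celf3 and Celf2. The G and C content is 52.9% for Celf3, 61.2% for Celf5, 61.6% for Celf1, 31.8% for Celf2 and 50.4% for Hnrnpf. The longest unbroken stretch of A and T, the base composition that SATB1 is known to prefer, is 14 bases before Celf2 and 8 or fewer before Celf1, Celf3 and Celf5, against 9 before Hnrnpf. Over the 250 bases before the most upstream start in the RefSeq table, which matched 52 of the 56 genes, a GC box occurs in 63.5% of the members and 78.9% of 19 members called lower, against 42.7% of protein-coding genes. A CCAAT box occurs in 48.1% and 42.1% against 36.5%, TGACG, part of the cyclic AMP response element, in 42.3% and 47.4% against 20.2%, and TATAAA in 11.5% and 26.3% against 12.4%, both strands searched each time. The medians of G and C content are 62.4%, 68.0% and 55.2%. The protein-coding genes were not limited to those expressed here, nor matched to the members in level or G and C content. The 26.3% for TATAAA is 5 of 19 genes. The table gives no entry for Celf4, Hnrnpul2, Hnrpll and Rbfox2.

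**Figure D2:**
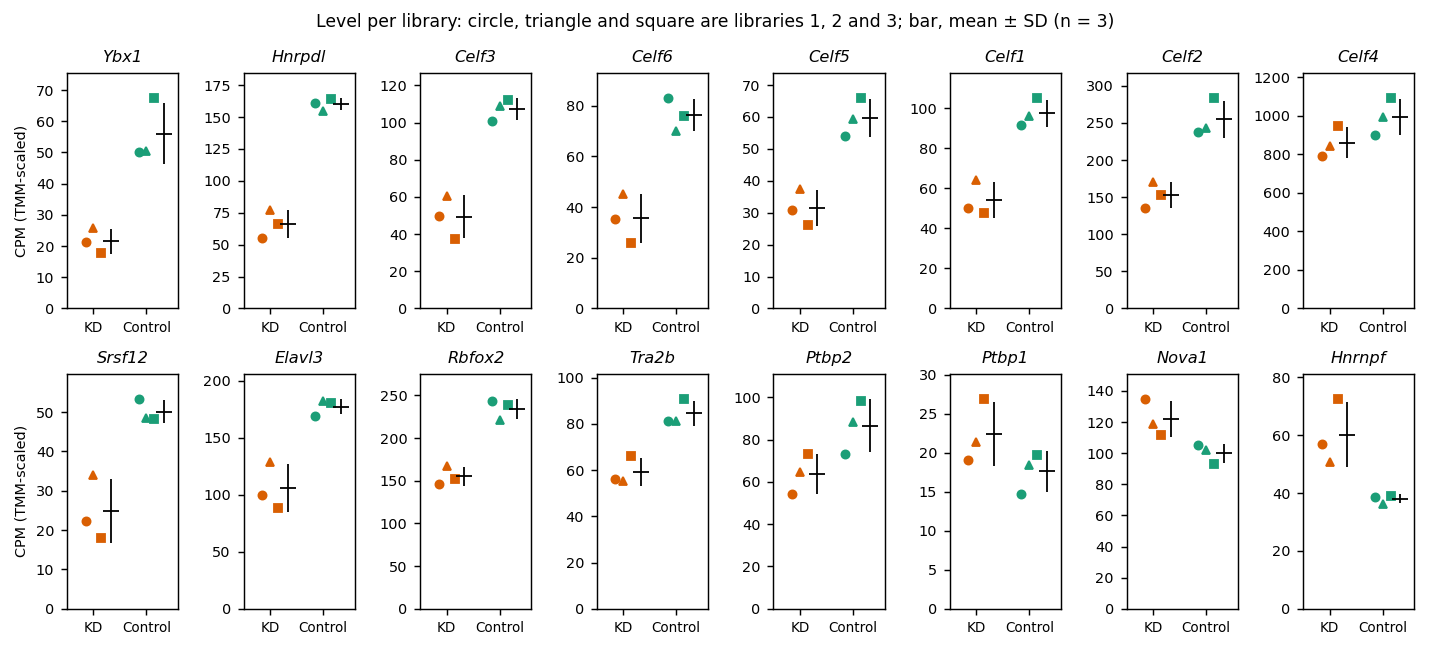
Level of 16 splicing regulators in each library, in CPM from 0, with knockdown (KD) left of control. Circles, triangles and squares are libraries 1, 2 and 3, and black bars give mean ± SD (n = 3). The 5 lower CELF genes, Ybx1, Hnrpdl, Srsf12, Elavl3 and Rbfox2 show 2 separate clouds, while Celf4 and Ptbp1 overlap between groups.

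Of the 4 Elavl genes, 2 were lower, where 12.6% of all tested genes and 20.5% of those at 10 to 1000 CPM were. Elavl proteins stabilise AU-rich mRNA and act on splicing. Elavl1 is expressed in all tissues and the other members mainly in neurons. Elavl3 had 17952 counts in knockdown library 1, 19847 in library 2 and 14131 in library 3. That is 106 ± 20.8 CPM (SD, n = 3), with the highest library at 129 CPM, and controls 1 to 3 were at 169.6, 182 and 181 CPM in controls (log2 fold change -0.75 ± 0.13, SE; adjusted p = 0.00174, edgeR). Elavl4 averaged 49.4 CPM per kilobase in the knockdown and 64.1 in controls, above Elavl2 (53.3 and 57.7) in the controls but not in the knockdown. It was at 239, 246 and 273 CPM against 296, 320.2 and 369 CPM (-0.38, adjusted p = 0.0193). Total counts removed the call for Elavl4, as did the absence of knockdown library 1 or of control library 2 or 3. Elavl1 (-0.22) and Elavl2 (-0.11) had overlapping groups and did not pass. Exons of Elavl3 overlap a predicted gene on the same strand.

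Rbfox proteins bind UGCAUG beside neuronal and muscle exons. Of the 3 genes, Rbfox2, which is expressed in many tissues, was lower. That is 33.3%, against 12.6% of all tested genes and 20.5% of those at 10 to 1000 CPM. Rbfox2 was at 146, 167 and 152 CPM in the knockdown and 243, 221 and 239 CPM in controls, with no overlap and with log2 fold change -0.60 ± 0.09 (SE; adjusted p = 0.00103, edgeR). Rbfox3, known as the neuronal nuclear marker NeuN, was at 62.2, 68.6 and 62.2 CPM against 69.4, 77.5 and 81.3 CPM. Its groups did not overlap either, but the change of -0.24 did not pass (adjusted p = 0.11). Rbfox1, the neuronal and muscle member, was at 53.1, 54.4 and 50.5 CPM against 48.9, 56.8 and 53.7 CPM (-0.01). Coding transcripts of the 3 Rbfox genes overlap no other annotated gene and share no 50-base word with one.

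Neither Nova gene passed. Nova proteins bind clusters of YCAY and govern splicing of synaptic transcripts. Nova1 was at 135, 119 and 112 CPM in the knockdown and 105, 102 and 93.1 CPM in controls, with every knockdown library above every control (log2 fold change 0.29 ± 0.10, adjusted p = 0.0621, edgeR). It was called higher with total-count scaling, DESeq2 and the filter at a mean of 1 CPM, and without knockdown library 3. Nova2, with the higher level per length, was at 156, 169 and 190.1 CPM against 184, 184 and 187 CPM (-0.11).

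Ybx1, which packages mRNA through its cold-shock domain and also binds exonic enhancers, had the largest decrease of all 56 genes. It was at 21.2, 25.7 and 17.8 CPM in the knockdown and 50.1, 50.5 and 67.3 CPM in controls, 2.6-fold lower (log2 fold change -1.38 ± 0.16, SE; adjusted p = 0.000318, edgeR). Even knockdown library 2 was far below the lowest control. Of its 50-base words, 24.2% occur in other genes, including the pseudogene Ybx1-ps2. Ybx2, the germ cell member, was near the floor, with between 14 and 61 counts in the knockdown and between 32 and 79 in controls, and did not pass.

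Ratios between paralogs within a library do not depend on the scaling between libraries. The ratio of Ptbp1 to Ptbp2, each per length, was 0.462, 0.436 and 0.485 in knockdown libraries 1 to 3, and 0.265, 0.273 and 0.264 in control libraries 1 to 3. It was 1.72-fold higher in the knockdown, and the 3 libraries of each group lay close together. The ratio of Tra2b to Tra2a was 0.468, 0.524 and 0.558 in the knockdown and 0.733, 0.666 and 0.846 in controls. The ratio of Nova1 to Nova2 was 0.946, 0.765 and 0.641 in the knockdown and 0.62, 0.601 and 0.541 in controls, with one knockdown library close to the highest control. Each of these 3 ratios separated the groups, and each had an exact two-sided permutation p = 0.10, the smallest that 3 against 3 libraries allow. Of the 50-base words of Nova2, 30.8% also occur in transcripts of other genes, as do 24.2% for Ptbp1 and 17.6% for Tra2b. The counts behind these ratios are uncertain to that extent. Among pairs chosen after their values were seen, the ratio of Hnrpdl to Hnrnpd averaged 0.767 ± 0.1 in the knockdown and 2.09 ± 0.277 in controls, and that of Hnrnpf to Hnrnph1 0.37 ± 0.0319 and 0.184 ± 0.0152 (SD, n = 3).

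The make-up of some families differed between the groups. Celf4 made up 79.1, 76.3 and 83.7% of the summed level per length of the CELF family in knockdown libraries 1 to 3, and 68.7, 70.6 and 70.8% in control libraries 1 to 3. Rbfox2 made up 44.6, 46.3 and 46.2% of the Rbfox sum in the knockdown and 56.9, 51.3 and 53.4% in controls, so that it was no longer above the other two together. Elavl3 made up 11.6, 13.9 and 8.93% of the Elavl sum against 16, 15.6 and 14.8%. In the Srsf family, Srsf12 made up 1.71, 2.44 and 1.3% in the knockdown against 3, 2.82 and 2.83% in controls, and Srsf5, the largest share, 30, 30 and 30.3% against 32.8, 31.9 and 31.2%. The shares of Srsf2, Srsf4, Srsf7, Srsf9, Srsf10 and Srsf11 also separated the groups, lower in the knockdown for Srsf2 and higher for the others. Shares are relative, so a fall in some members raises the shares of others. The genes with higher shares had log2 fold changes from -0.20 (Srsf7) to -0.02 (Srsf9), and none passed. Levels, as opposed to shares, separated the groups for 38.7% of all tested genes and 48.9% of those at 10 to 1000 CPM. Lengths are those of merged exons of GENCODE coding transcripts, so shares between genes depend on that annotation.

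**Figure D3:**
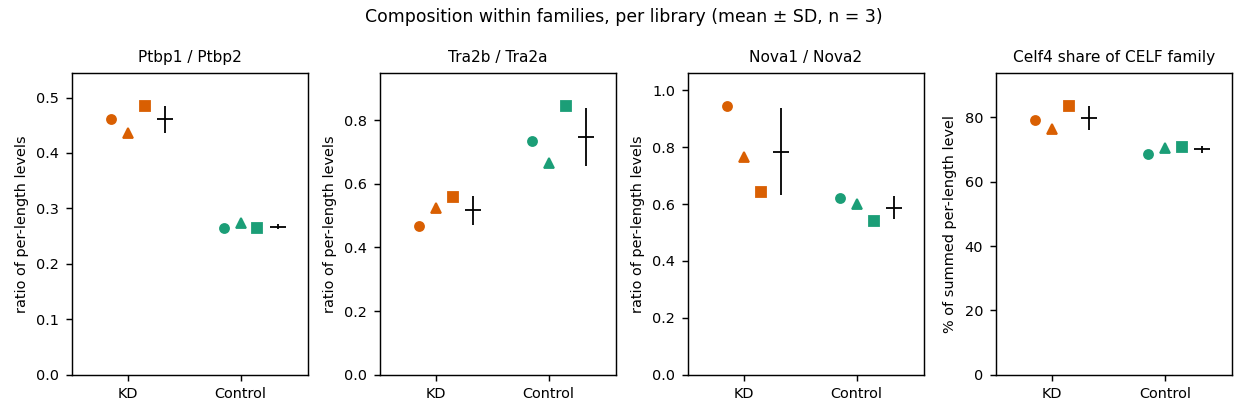
Ratios of paralogs per length (3 left panels) and the share of Celf4 in the summed CELF level (right panel, in %), per library, knockdown (KD) left of control. Markers are libraries 1, 2 and 3, and bars give mean ± SD (n = 3). The Ptbp1 to Ptbp2 ratio lies at 0.436 to 0.485 in the knockdown and at 0.264 to 0.273 in controls.

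The lower members did not follow the knockdown libraries in a single order. For 7 of the 21, knockdown library 3 was lowest and library 2 highest, the same order as Satb1: Celf1, Celf3, Celf5, Celf6, Elavl3, Srsf12 and Ybx1. For 9, knockdown library 3 was instead the highest: Elavl4, Hnrnpa0, Hnrnph1, Hnrnpr, Hnrnpul2, Ptbp2, Srsf5, Srsf6 and Tra2b. Of the other 2093 genes called lower, 46.3% had the order of Satb1 and 17.1% were highest in knockdown library 3, against 33.3% and 42.9% of the splicing regulators. These shares are a description of 3 libraries. The lower members had a median exon length of 3692 bases and the uncalled ones of 4086, and medians of G and C content in coding transcripts of 48.9% and 48.6%. An annotated transcript subject to nonsense-mediated decay was present for 10 of the 21 lower and 20 of the 34 uncalled members.

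**Figure D4:**
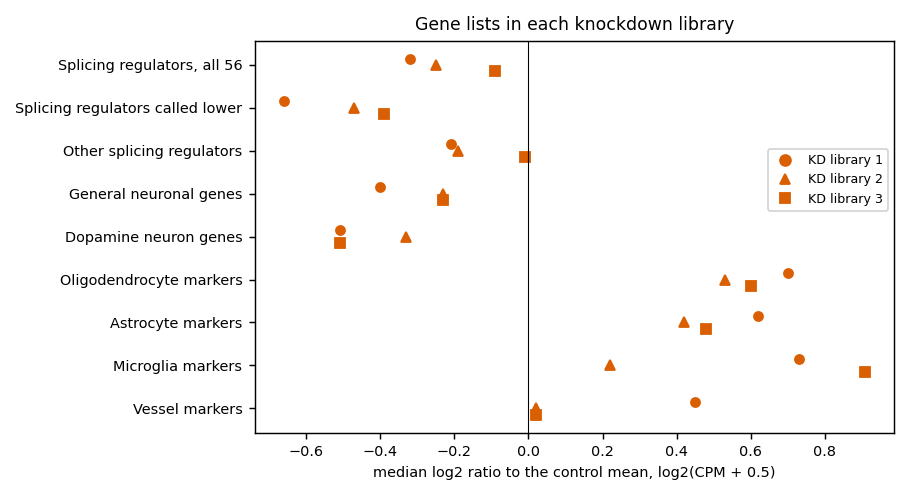
Median log2 ratio to the control mean, on log2(CPM + 0.5), of gene lists in each knockdown library. Circles, triangles and squares are knockdown libraries 1, 2 and 3. The splicing regulators lie at -0.32, -0.25 and -0.09, below zero with dopamine neuron genes, while oligodendrocyte markers lie at 0.70, 0.53 and 0.60.

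Of 62 other RNA-binding regulators of splicing tested, 14 were lower, 3 were higher and 45 did not pass. That is 27.4% called and 22.6% lower, against 21.1% and 12.6% of all tested genes. It is near the 30.2% and 20.5% of genes at 10 to 1000 CPM, though some of the 62, such as Mbnl3 and Esrp1, lay below that range. The median log2 fold change was -0.11. Under total counts these were 6 lower and 5 higher genes. Without knockdown library 1, 5 were lower, and without control library 3, 8 were lower and 1 was higher. Son, a speckle protein needed for weak splice sites, was at 93.1, 107 and 108 CPM in the knockdown and 145, 154 and 157 CPM in controls (log2 fold change -0.56 ± 0.10, adjusted p = 0.0018, edgeR). Zfr, a zinc finger RNA-binding protein, fell by 0.52 on the log2 scale, Rbmx, also called hnRNP G, by 0.73, and Pcbp3, a binder of C-rich RNA, by 0.69. Those that rose were Fubp3 (0.71), Khdrbs3 (0.52), which regulates neurexin splicing, and Qk (0.43), which acts in oligodendrocytes and was at 152 ± 12.6 CPM in the knockdown and 113 ± 12.4 CPM in controls. Qk thus moved with the oligodendrocyte markers given above, and their part in it was not tested.

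Kinases and import receptors that act on SR and hnRNP proteins were called in both directions, 2 of 12 lower and 2 higher. The share of 33.3% stands against 21.1% of all tested genes and 30.2% of genes at 10 to 1000 CPM. Srpk3 lay below that range. Tnpo3, which carries phosphorylated SR proteins into the nucleus, was at 35.4, 37.4 and 30.2 CPM in the knockdown and 59, 55.1 and 63.6 CPM in controls (log2 fold change -0.79 ± 0.11, adjusted p = 0.000734, edgeR). Its groups lay well apart. The spliceosomal kinase Prpf4b was at 48.1, 54.8 and 61.4 CPM in the knockdown and 77.4, 81 and 88.6 CPM in controls (-0.59, adjusted p = 0.00328). The higher genes were Clk4 (0.47), a kinase of SR proteins, and Tnpo1 (0.39), the import receptor of hnRNP A1. The SR protein kinases Srpk1 (0.05) and Srpk2 (-0.14) did not pass. With total-count scaling the counts were again 2 and 2. None was higher without control library 1, and 1 was higher without control library 2 or 3 or knockdown library 1 or 3.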

How the data were processed

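Whole-number gene counts, 1 column for each library, were deposited by the authors as a single table. Per the submitters' processing notes, TopHat2 2.0.8 was used with mm10. The sources used here give neither the counting tool nor its handling of strand and of reads with several alignments. Groups and replicate numbers came from the titles. Tests were run with edgeR 4.0.16 (R 4.3.3), by its quasi-likelihood method with TMM factors, filterByExpr (minimum count 10, minimum total 15) and Benjamini-Hochberg adjustment over 16766 genes at 0.05, with standard errors from the F statistic; every test was two-sided. On simulated counts with planted changes the test was checked. Alternatives used DESeq2 1.42.0 and limma 3.58.1. Levels per length divided CPM by the merged exon length of GENCODE coding transcripts, and 50-base words were searched on both strands of all GENCODE transcripts. All 56 gene identifiers matched RefSeq on GRCm38.p6. Members and lists were chosen with earlier results of these data known. Full values are given for members called without overlap between groups and for the most abundant member per length of each family. For Elavl3 the knockdown libraries are given as counts. In families with no call they are given for the member with the largest change. Replicate libraries differed well beyond sampling noise, with a mean chi-square per gene of 58.5 or more.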

Additional observations from a re-analysis of the deposited data

How the results depend on the processing

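Over all genes 1421 were higher and 2115 lower, against 2770 and 972 with total-count scaling, so that 74% of the calls were higher against 40.2%. Leaving out single libraries gave 804 to 1356 higher and 1132 to 2054 lower. Among the splicing regulators, 13 were lower and 5 higher with total-count scaling, against 21 and 1. There were 2 higher with DESeq2, 2 with a filter at a mean of 1 CPM and 3 with the replicate number as a block. Without single libraries, 13 to 24 were lower and 1 to 2 higher. Among the other regulators of splicing, total-count scaling gave 6 lower and 5 higher, and single libraries left out gave 5 to 12 lower and 1 to 3 higher. Their main counts were 14 and 3. Satb1 kept its call under all 14 alternatives. Of the members' values under alternatives, 727 kept their side of the threshold, 33 lost and 23 gained a call, and none of the called values changed sign. The sign of 12 uncalled members differed with total-count scaling.

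The labels do not say whether libraries with the same replicate number belong together. Deviations from the group mean correlated at 0.181, 0.021 and 0.253 for numbers 1 to 3, and knockdown library 2 correlated best with control library 1 (0.067). Knockdown library 1 with control library 3 gave -0.205, and knockdown library 3 with control library 1 gave -0.217. With the replicate block 28 members were lower and 3 higher, and 2789 and 1924 of all genes. It added calls for Celf4 (adjusted p = 0.0128, edgeR), which made 6 of 6 CELF genes lower, and for Srsf1, Elavl1, Hnrnpa2b1, Hnrnpa3, Hnrnpk and Hnrnpu (lower) and Ptbp1 and Nova1 (higher). With at least 147486754 counts a library, the spread of 3 libraries per group limits what can be called.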
